A study of Mus musculus with 6 samples.

Results

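Aplnr, the gene of the apelin receptor, and 9 genes that mark the vessels of the kidney (Pecam1, Tek, Tie1, Kdr, Flt1, Emcn, Ehd3, Cdh5 and Plvap) were taken by symbol from a table of 34714 genes. All 10 symbols were found, and all 10 were among the 12174 genes that averaged at least 1 FPKM and were tested. FPKM divide the fragments of a gene by its transcript length and by the total of its library, so levels can be compared between genes per length. The genes were chosen with their difference between knockout and wild-type known, so that difference is described here and not tested. By their known roles 5 of the 10 are receptors of circulating or local ligands (Aplnr, Tek, Tie1, Kdr and Flt1, of which Tie1 is an orphan receptor), and the others are adhesion molecules, a sialomucin, a membrane trafficking protein and a diaphragm protein of the same cells.

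RNA was sequenced from kidneys of 8-week-old mice fed normal chow, 3 labelled Hspa8 knockout and 3 labelled wild-type. Whether the 3 of a group came from different animals is not stated, so n = 3 below counts samples. Hspa8 encodes HSC70, the constitutive chaperone of the HSP70 family. The mice obtained for the study included Hspa8flox/flox mice (C57BL/6J-Hspa8em1flox/Cya) and Cdh16-Cre mice, in which Cre is made in tubule epithelium, and C57BL/6J mice. The sample labels give the knockout no Cre, the wild-type no floxed allele and neither group a sex, so strain background, Cre and the floxed allele cannot be told apart from the loss of Hspa8. Endothelium is not a cell type in which the Cdh16 promoter is known to drive Cre. Hspa8 stood at 650, 699 and 781 FPKM in knockout replicates 1 to 3. In wild-type replicates 1 to 3 it stood at 1058, 1092 and 1318 FPKM. Part of the transcript was thus present in every knockout sample. The sum of FPKM was 381586 to 417123 in the 6 libraries, and since FPKM keep no read totals the depth is unknown. Wild-type replicate 3 and knockout replicate 2 stood apart from the other libraries of their groups, which touches the results below and is given beside them.

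Endothelial cells line all vessels, and those of the kidney take several forms. Glomerular capillaries have open pores and filter plasma, peritubular capillaries have pores bridged by diaphragms and take up what the tubules reabsorb, and the vasa recta serve the medulla. Signals from neighbouring cells maintain them. VEGFA, made largely by podocytes and tubules, acts through the receptor tyrosine kinases KDR and FLT1, angiopoietins act through TEK with its partner TIE1, and apelin and ELABELA act through the G protein-coupled receptor APLNR, which is linked to sprouting and to vessel tone.

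All 10 genes averaged less in knockout than in wild-type kidneys, and Aplnr differed most. The mean Aplnr level in knockout kidney was 0.509 of that in wild-type kidney, while the ratios of the other 9 genes lay between 0.692 for Tie1 and 0.785 for Flt1. The median ratio was 0.761 over the 10 genes and 0.969 over all tested genes. In bulk tissue, fewer endothelial cells and less of these transcripts per cell cannot be told apart. On the log2(FPKM + 1) scale, which understates changes of low genes, the median log2 fold change was -0.36 for the 10 genes and -0.04 for all tested genes, of which 64.9% lay below 0. In limma's test with Benjamini-Hochberg adjustment 0 of the 10 genes were called, as were 0% of all tested genes, 629 of which had an unadjusted p under 0.05. For 7 of the 10 genes every knockout value lay below every wild-type value, as was the case for 8.57% of all tested genes. That number was 3 when library medians were equalised and 4 when quantiles were, beside 5.10% and 5.51% of all tested genes. The reverse, every knockout value above every wild-type value, held for 0 of the 10 and for 2.01% of all tested genes. Because the genes were chosen on this contrast, these shares describe them and support nothing further.

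Aplnr (chromosome 2, 85136360 to 85139923 in GRCm38.p6, plus strand) is a compact gene whose longest GENCODE transcript has 1 exon of 3699 bases. It stood at 1.25, 1.34 and 1.20 FPKM in knockout replicates 1 to 3, against 2.55, 2.38 and 2.52 FPKM in wild-type replicates 1 to 3. The groups were far apart and the replicates of each were close together, with coefficients of variation of 5.62% in knockout and 3.73% in wild-type kidneys. The mean was 1.26 ± 0.0711 FPKM in knockout and 2.48 ± 0.0927 FPKM in wild-type kidneys (SD, n = 3 each), 49.1% lower in the knockout. The log2 fold change was -0.62 (standard error 0.0882.) By the ratio of group means Aplnr ranked 11 of 12174 tested genes, counted from the lowest, and by log2 fold change it ranked 25. It was the least abundant of the 10 genes in both groups, and low FPKM rest on fewer reads than high ones.

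**Figure D1:**
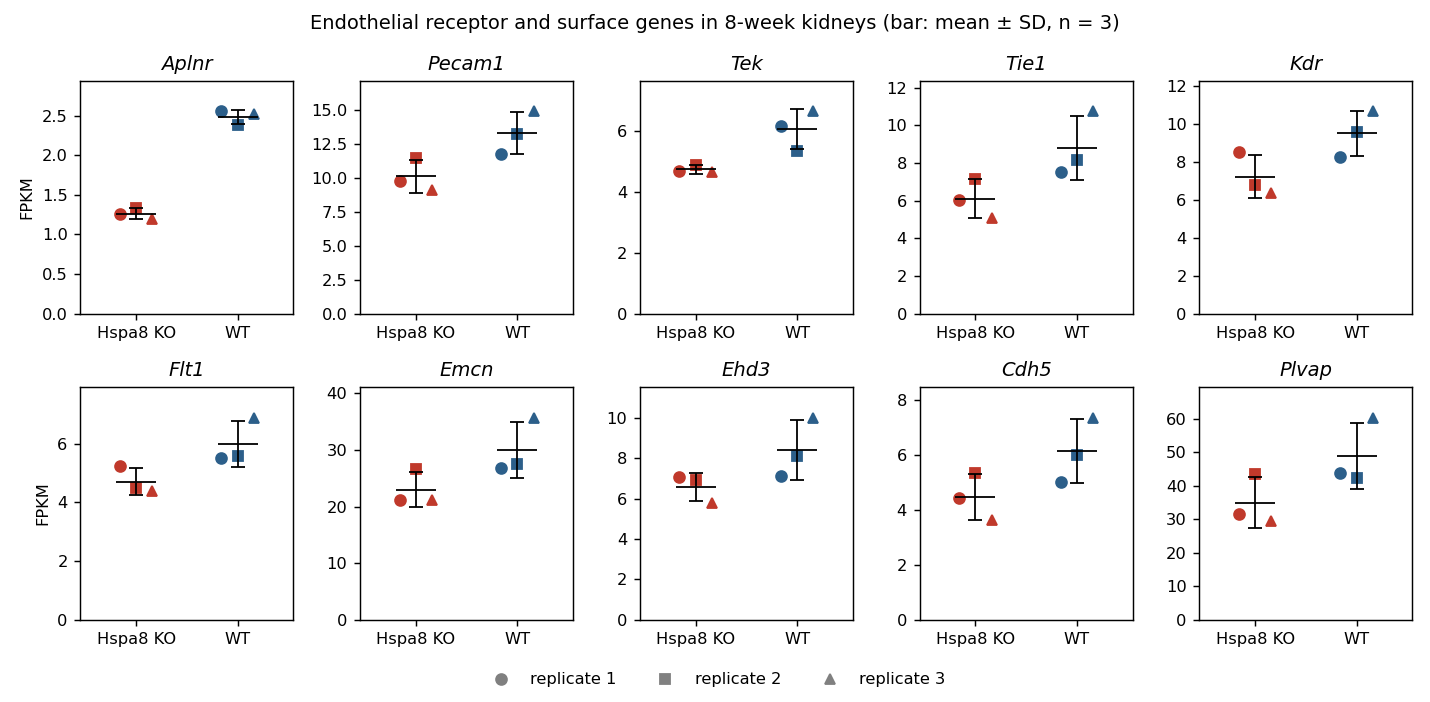
FPKM of each of the 10 genes (vertical axes, from 0) in Hspa8 knockout (red) and wild-type (blue) kidneys, with 1 symbol per library by replicate number and bars for mean ± SD (n = 3). Aplnr shows the widest gap, 1.20 to 1.34 FPKM in knockout against 2.38 to 2.55 FPKM in wild-type kidneys, and wild-type replicate 3 is the highest library for the other 9 genes.

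Aplnr was lower in the knockout also relative to the other 9 genes. The geometric mean of the other 9 genes was 8.60, 9.31 and 7.56 FPKM in knockout replicates 1 to 3, against 10.1, 10.7 and 13.2 FPKM in wild-type replicates 1 to 3. Divided by that mean, Aplnr stood at 0.146, 0.144 and 0.159 in knockout and at 0.254, 0.223 and 0.190 in wild-type replicates 1 to 3. The groups did not overlap in this ratio, whose knockout mean was 0.672 of the wild-type mean. Divided by Pecam1 alone, Aplnr averaged 0.125 ± 0.00769 in knockout and 0.188 ± 0.0253 in wild-type kidneys (SD, n = 3 each), also without overlap. Wild-type replicate 3, which was highest for the other 9 genes, was not highest for Aplnr, and knockout replicate 2, which for several of the 9 lay close to wild-type, did not for Aplnr.

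**Figure D2:**
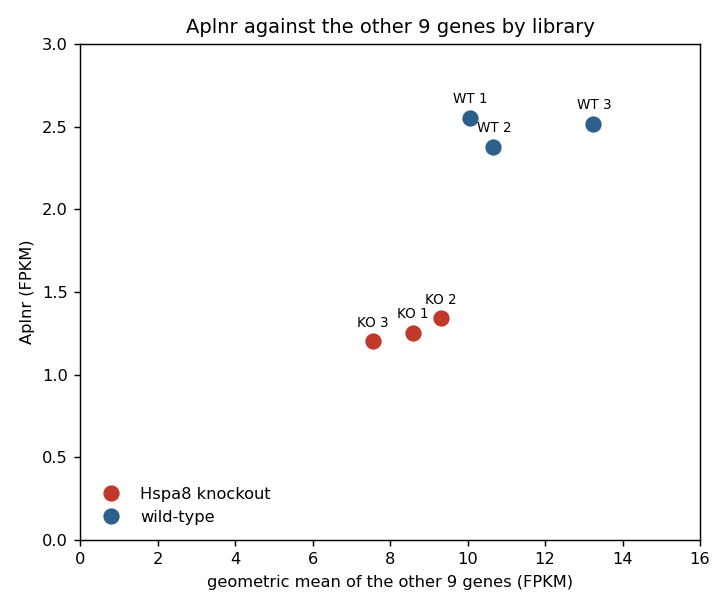
Aplnr (vertical axis, FPKM) against the geometric mean of the other 9 genes (horizontal axis, FPKM) in each library, with knockout in red and wild-type in blue and the group (KO or WT) and replicate number above each point. Knockout kidneys lie at 7.56 to 9.31 FPKM across and 1.20 to 1.34 FPKM up, and wild-type kidneys at 10.1 to 13.2 FPKM across and 2.38 to 2.55 FPKM up.

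The ligand genes of the receptor overlapped between the groups. Apela encodes ELABELA, which in the adult mouse is made mainly in the kidney, and it stood at 10.7, 24.7 and 11.8 FPKM in knockout replicates 1 to 3, against 15.5, 18.6 and 24.4 FPKM in wild-type replicates 1 to 3. Knockout replicate 2 and wild-type replicate 3 were high and the groups overlapped. Apln, the apelin gene, had 2.52, 3.11 and 2.27 FPKM in knockout and 2.64, 2.77 and 3.08 FPKM in wild-type replicates 1 to 3, with overlap. Neither passed limma's test over all genes. The log2 fold change was -0.37 (standard error 0.292) for Apela (adjusted p = 0.998) and -0.08 (standard error 0.111) for Apln (adjusted p = 0.998), and without wild-type replicate 3 it was -0.20 for Apela and -0.035 for Apln. Of the exon bases of Apela 29.6% are shared with an overlapping transcript on the same strand in the GENCODE annotation, so its values may hold reads of both.

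The 4 receptor tyrosine kinase genes form a pair of families. Tek (chromosome 4, 94739086 to 94874976, plus strand) and Tie1 (chromosome 4, 118471191 to 118489849, minus strand) lie on the same chromosome, as do Kdr (chromosome 5, 75932827 to 75979072, minus strand) and Flt1 (chromosome 5, 147561604 to 147726438, minus strand). Their promoters are shown as background, since transcription factors of endothelium can act through such sequences. Whether any factor does so in these kidneys was not tested. ETS factors such as ERG, FLI1 and ETS1 bind a GGAA core. RefSeq's table (GRCm38.p6) gave 300 bases, 250 before and 50 after a transcription start, for 6 of the 10 genes, with none for Aplnr, Pecam1, Cdh5 and Plvap. That start need not be the outermost one of the gene. The windows of Kdr and Flt1 lie wholly within the gene positions given above, and the start of Tek also lies inside its gene. The sequences run 5′ to 3′ along the gene's strand, and capitals mark AGGAAG or CCGGAA on either strand, which read CTTCCT or TTCCGG on the other strand and share the core GGAA.
Tie1, chr4:118489800-118490099, minus strand: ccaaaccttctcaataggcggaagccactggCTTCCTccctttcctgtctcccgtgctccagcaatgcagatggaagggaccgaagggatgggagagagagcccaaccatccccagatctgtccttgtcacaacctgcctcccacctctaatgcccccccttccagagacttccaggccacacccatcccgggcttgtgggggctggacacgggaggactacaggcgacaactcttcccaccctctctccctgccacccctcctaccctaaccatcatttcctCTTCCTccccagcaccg
Tek, chr4:94739039-94739338, plus strand: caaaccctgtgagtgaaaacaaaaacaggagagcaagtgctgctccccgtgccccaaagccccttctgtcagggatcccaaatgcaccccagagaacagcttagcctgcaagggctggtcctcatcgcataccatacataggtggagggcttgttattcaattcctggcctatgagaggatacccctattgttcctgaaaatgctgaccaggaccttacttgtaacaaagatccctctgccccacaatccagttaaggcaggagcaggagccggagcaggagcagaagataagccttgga
Kdr, chr5:75978406-75978705, minus strand: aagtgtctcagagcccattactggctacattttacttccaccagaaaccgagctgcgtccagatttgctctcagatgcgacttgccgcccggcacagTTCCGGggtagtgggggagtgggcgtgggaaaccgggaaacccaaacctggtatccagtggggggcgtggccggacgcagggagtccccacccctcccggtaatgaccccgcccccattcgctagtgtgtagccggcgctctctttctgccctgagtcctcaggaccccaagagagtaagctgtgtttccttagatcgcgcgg
Flt1, chr5:147725962-147726261, minus strand: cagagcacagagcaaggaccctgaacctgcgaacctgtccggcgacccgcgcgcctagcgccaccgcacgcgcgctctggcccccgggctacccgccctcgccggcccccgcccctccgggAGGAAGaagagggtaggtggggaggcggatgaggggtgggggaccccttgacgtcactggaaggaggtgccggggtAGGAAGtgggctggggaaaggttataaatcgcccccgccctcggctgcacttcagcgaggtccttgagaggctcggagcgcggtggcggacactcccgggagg

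The Tie1 promoter held 2 matches, with first bases 219 bases before and 34 bases after the start, Flt1 held 2, at 129 and 53 bases before, Kdr held 1, at 153 bases before, and Tek held 0. Only AGGAAG and CCGGAA were counted. The core GGAA, or TTCC on the other strand, also stands unmarked in these windows, that of Tek included. Over the 6 promoters AGGAAG was found in 4 (Emcn, Tie1, Flt1 and Ehd3), against 35.4% of the 32851 promoters of that length in the table. CCGGAA was found in 1 of the 6, Kdr, against 14.9%. The forkhead word TAAACA was found in 0 of the 6, against 13.4%, and the GATA word AGATAA in 1, Tek, against 11.2%, each counted on both strands. The GC content was 70.7% for Flt1, 60.7% for Kdr, 60.3% for Tie1 and 52.0% for Tek, against a median of 52.7% over the table. These matches describe the windows and do not show that a factor binds there.

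Tie1 was the lowest of the receptor kinase genes relative to wild-type. TIE1 is the orphan partner that forms complexes with TEK. Tie1 had 6.02, 7.16 and 5.09 FPKM in knockout replicates 1 to 3, against 7.52, 8.14 and 10.7 FPKM in wild-type replicates 1 to 3. The groups did not overlap, and wild-type replicate 3 was well above the other wild-type libraries. The log2 fold change was -0.46 (standard error 0.150), and -0.33 without wild-type replicate 3.

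Tek, which encodes the angiopoietin receptor, varied little between knockout kidneys. It had 4.67, 4.90 and 4.65 FPKM in knockout replicates 1 to 3, against 6.18, 5.35 and 6.65 FPKM in wild-type replicates 1 to 3. The groups did not overlap, with wild-type replicate 2 nearest to the knockout. The log2 fold change was -0.29 (standard error 0.0943.) Tie1 per Tek averaged 1.28 ± 0.184 in knockout and 1.45 ± 0.207 in wild-type kidneys (SD, n = 3 each) and overlapped between the groups.

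The rest of the angiopoietin pathway gave no call. Ptprb, which encodes VE-PTP, the phosphatase that restrains TEK, averaged 3.32 ± 0.385 FPKM in knockout and 4.23 ± 0.488 FPKM in wild-type kidneys (SD, n = 3 each), with a log2 fold change of -0.28 and limma adjusted p = 0.947. Svep1, a matrix protein that binds TIE1 in studies of lymphatic vessels, averaged 1.23 ± 0.160 FPKM in knockout and 1.60 ± 0.171 FPKM in wild-type kidneys. Both had groups that did not overlap. The agonist Angpt1 averaged 2.97 ± 0.480 FPKM in knockout and 3.31 ± 0.853 FPKM in wild-type kidneys, with 14.2% of its exon bases shared with an antisense gene. The context-dependent antagonist Angpt2 had 1.10, 4.74 and 1.73 FPKM in knockout and 1.82, 2.86 and 4.06 FPKM in wild-type replicates 1 to 3, so knockout replicate 2 and wild-type replicate 3 were again the high libraries. Angpt4 stayed at 0.116 to 0.240 FPKM in knockout and 0.0747 to 0.175 FPKM in wild-type kidneys and was not tested. Of the 4 tested genes of this list 0 passed in either direction and the median log2 fold change was -0.23. Angpt1 and Angpt2 had log2 fold changes of -0.11 and -0.25, and changed sign for Angpt1 when wild-type replicate 1 was left out (0.0421) and for Angpt2 when knockout replicate 1 was left out (0.0573).

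Kdr and Flt1 averaged 0.761 and 0.785 of their wild-type levels in the knockout. Kdr, which encodes VEGFR2, the main signalling receptor for VEGFA, had 8.51, 6.77 and 6.37 FPKM in knockout replicates 1 to 3, against 8.26, 9.54 and 10.6 FPKM in wild-type replicates 1 to 3. The groups overlapped, since knockout replicate 1 lay above wild-type replicate 1. Its log2 fold change was -0.35 (standard error 0.127.) Flt1 encodes VEGFR1, which binds VEGFA tightly and signals weakly, and it had 5.24, 4.48 and 4.40 FPKM in knockout and 5.51, 5.58 and 6.89 FPKM in wild-type replicates 1 to 3. The groups did not overlap, with knockout replicate 1 close to wild-type replicate 1. Its log2 fold change was -0.29 (standard error 0.109), and -0.17 with knockout replicate 2 and wild-type replicate 3 left out. Kdr per Flt1 averaged 1.53 ± 0.0901 in knockout and 1.58 ± 0.111 in wild-type kidneys (SD, n = 3 each), with overlap.

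Of the tested VEGF ligands Vegfa, Vegfb and Vegfc overlapped between the groups and Vegfd did not. Vegfa, the most abundant of them, had 104, 106 and 88.6 FPKM in knockout replicates 1 to 3, against 90.9, 99.6 and 117 FPKM in wild-type replicates 1 to 3, and the groups overlapped. Its log2 fold change was -0.04 (standard error 0.120), and it turned to 0.00632 when library sums were equalised, to 0.0181 when library medians were, and to 0.0605 without wild-type replicate 3. Vegfb averaged 27.3 ± 4.84 FPKM in knockout and 27.6 ± 3.32 FPKM in wild-type kidneys (SD, n = 3 each), and its log2 fold change of -0.03 also turned above 0 with library sums, medians or quantiles equalised. Vegfc, a ligand of FLT4, averaged 1.89 ± 0.403 FPKM in knockout and 2.14 ± 0.216 FPKM in wild-type kidneys. Vegfd, of the same branch, had 1.64, 1.496 and 1.70 FPKM in knockout and 2.14, 2.36 and 2.02 FPKM in wild-type replicates 1 to 3, without overlap, a log2 fold change of -0.28 and limma adjusted p = 0.914. Pgf, a ligand of FLT1, stayed at 0.215 to 0.495 FPKM in knockout and 0.156 to 0.329 FPKM in wild-type kidneys and was not tested.

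Among the further VEGF receptors, Flt4 (VEGFR3) averaged 1.09 ± 0.104 FPKM in knockout and 1.56 ± 0.228 FPKM in wild-type kidneys (SD, n = 3 each). The co-receptor gene Nrp1 averaged 14.5 ± 0.693 FPKM in knockout and 16.6 ± 2.15 FPKM in wild-type kidneys. Its relative Nrp2 averaged 1.72 ± 0.263 FPKM in knockout and 2.32 ± 0.102 FPKM in wild-type kidneys. The groups did not overlap for any of these receptors. Of the 7 tested genes among the VEGF ligands and further receptors, 0 passed limma's test in either direction, and the median log2 fold change was -0.18. All 7 lay below 0, but 5 of 7 did without wild-type replicate 3, where the median was -0.084. Of all tested genes 64.9% lay below 0, or 66.6% without wild-type replicate 3.

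Pecam1 and Cdh5 encode the adhesion molecules that hold endothelial cells to each other. Pecam1 (chromosome 11, 106654213 to 106715281, minus strand) had 9.77, 11.5 and 9.15 FPKM in knockout replicates 1 to 3, against 11.8, 13.3 and 14.9 FPKM in wild-type replicates 1 to 3. The groups were separated by a narrow gap between knockout replicate 2 and wild-type replicate 1. Its log2 fold change was -0.36 (standard error 0.116.) Cdh5, the gene of VE-cadherin (chromosome 8, 104101613 to 104144504, plus strand), had 4.43, 5.34 and 3.65 FPKM in knockout and 5.04, 6.03 and 7.38 FPKM in wild-type replicates 1 to 3. Here knockout replicate 2 lay above wild-type replicate 1, so the groups overlapped. Its log2 fold change was -0.38 (standard error 0.152), and -0.26 without wild-type replicate 3.

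Emcn and Ehd3 are prominent in glomerular capillaries, Emcn in other capillaries and veins too. Emcn, the gene of the sialomucin endomucin (chromosome 3, 137341062 to 137431069, plus strand), had 21.2, 26.6 and 21.2 FPKM in knockout replicates 1 to 3, against 26.8, 27.6 and 35.7 FPKM in wild-type replicates 1 to 3. Knockout replicate 2 almost reached wild-type replicate 1, and the groups did not overlap. Ehd3, which encodes an ATPase of endocytic recycling (chromosome 17, 73804841 to 73832093, plus strand), had 7.06, 6.92 and 5.79 FPKM in knockout and 7.10, 8.13 and 10.02 FPKM in wild-type replicates 1 to 3. Knockout replicates 1 and 2 lay just under wild-type replicate 1, and the separation of the groups rested on that margin. The log2 fold changes were -0.37 (standard error 0.138) for Emcn and -0.30 (standard error 0.129) for Ehd3, and without wild-type replicate 3 they were -0.24 and -0.18.

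Plvap was the most abundant of the 10 genes and the most variable, with coefficients of variation of 21.8% in knockout and 20.4% in wild-type kidneys. It encodes the protein that forms the diaphragms of peritubular capillaries (chromosome 8, 71497753 to 71511806, minus strand). It had 31.6, 43.7 and 29.6 FPKM in knockout replicates 1 to 3, against 43.9, 42.4 and 60.4 FPKM in wild-type replicates 1 to 3. Knockout replicate 2 lay among the lower wild-type libraries and the groups overlapped. Its log2 fold change was -0.47 (standard error 0.179), and ranged from -0.64 without knockout replicate 2 to -0.32 without wild-type replicate 3. Plvap per Ehd3, a peritubular gene over a glomerular one, averaged 5.30 ± 0.929 in knockout and 5.81 ± 0.519 in wild-type kidneys (SD, n = 3 each), with overlap.

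The order of levels per length was nearly the same in both groups. In knockout kidneys Plvap averaged 34.9 ± 7.60 FPKM, Emcn 23.0 ± 3.14, Pecam1 10.1 ± 1.22, Kdr 7.21 ± 1.14, Ehd3 6.59 ± 0.697, Tie1 6.09 ± 1.04, Tek 4.74 ± 0.137, Flt1 4.71 ± 0.462 and Cdh5 4.47 ± 0.847 FPKM (SD, n = 3 each), with Aplnr last. In wild-type kidneys Plvap averaged 48.9 ± 9.98 FPKM, Emcn 30.0 ± 4.95, Pecam1 13.3 ± 1.57, Kdr 9.48 ± 1.19, Tie1 8.80 ± 1.71, Ehd3 8.42 ± 1.48, Cdh5 6.15 ± 1.18, Tek 6.06 ± 0.656 and Flt1 6.00 ± 0.776 FPKM (SD, n = 3 each), again with Aplnr last. Kdr, Tie1 and Ehd3 overlapped among themselves in each group, as did Tek, Flt1 and Cdh5. Tie1 and Tek did not overlap in knockout kidneys, while Ehd3 and Cdh5 overlapped in wild-type kidneys. Plvap, Emcn, Pecam1 and Aplnr each kept a range of their own within a group.

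The libraries of a group did not stand in the same order for all 10 genes. Wild-type replicate 3 was the highest library for 9 of the 10 and knockout replicate 3 the lowest for 9 of the 10. Within the knockout, replicate 2 was highest for 7 genes and replicate 1 for Kdr, Flt1 and Ehd3, and within the wild-type, replicate 1 was lowest for 7. The mean deviation of the 9 genes other than Aplnr from their mean over the 6 libraries was -0.17, -0.06 and -0.33 on the log2 scale in knockout replicates 1 to 3, against 0.04, 0.11 and 0.40 in wild-type replicates 1 to 3. The gap between the nearest libraries, knockout replicate 2 and wild-type replicate 1, was thus smaller than the range within either group. For Aplnr the same deviations were -0.32, -0.26 and -0.35 in knockout and 0.34, 0.27 and 0.32 in wild-type replicates 1 to 3.

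**Figure D3:**
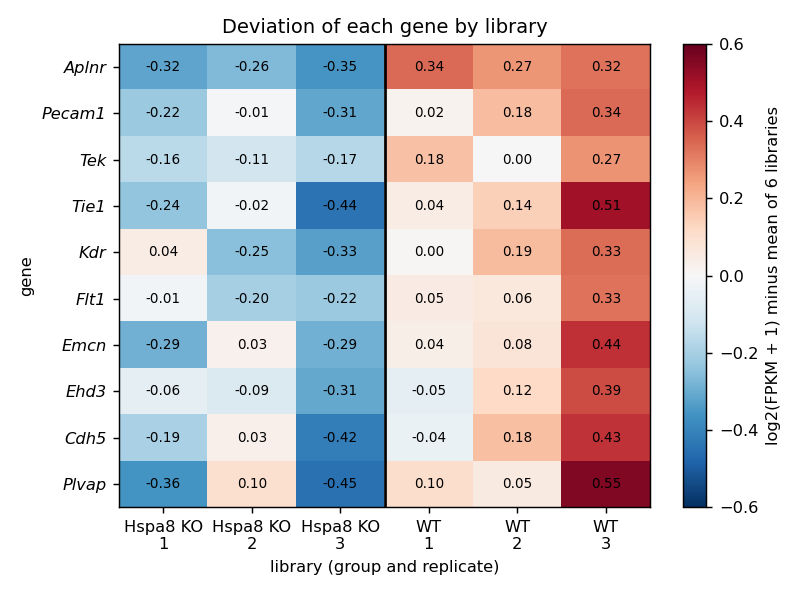
Deviation of log2(FPKM + 1) from the mean of the 6 libraries (colour, with the value printed) for each gene (rows) and library (columns, knockout left of the line). Aplnr lies at -0.35 to -0.26 in knockout and 0.27 to 0.34 in wild-type libraries, while the other genes are highest in wild-type replicate 3 and knockout replicate 2 lies near 0 for Pecam1, Tie1, Emcn and Cdh5.

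Other endothelial genes, not among the 10, leaned the same way without any call. Taking 7 pathway lists together (apelin ligands, VEGF, angiopoietin and TIE, junction and adhesion, other receptors, transcription factors, other products), 58 of 60 tested genes had a log2 fold change below 0, against 64.9% of all tested genes, and the median was -0.23. In limma's test 0 of the 60 passed, and for 20 of them every knockout value lay below every wild-type value, against 8.57% of all tested genes. The 58 became 56 with library sums or medians equalised, 55 with quantiles equalised and 54 without wild-type replicate 3, while the share of all tested genes below 0 became 50.2%, 46.5%, 49.2% and 66.6%. The lists were put together with earlier results of these data known.

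All 15 tested genes of the other endothelial receptors lay below 0, with a median log2 fold change of -0.34, or -0.19 without wild-type replicate 3. Ednrb, the endothelin B receptor gene, had 2.45, 3.46 and 2.94 FPKM in knockout replicates 1 to 3, against 3.87, 4.28 and 4.95 FPKM in wild-type replicates 1 to 3, without overlap. Cd93, a lectin-like receptor of endothelium, averaged 2.67 ± 0.464 FPKM in knockout and 3.86 ± 0.384 FPKM in wild-type kidneys (SD, n = 3 each). Both had limma adjusted p = 0.866. Among junction and adhesion genes 9 of 10 tested lay below 0. Icam2 averaged 2.47 ± 0.345 FPKM in knockout and 3.70 ± 0.593 FPKM in wild-type kidneys, and Jam3 11.6 ± 1.51 FPKM in knockout and 14.1 ± 0.576 FPKM in wild-type kidneys, neither passing (adjusted p = 0.866 and 0.947).

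Of the endothelial transcription factors 12 of 12 tested lay below 0 (10 without wild-type replicate 3), at a median of -0.16. Ets1, an ETS factor of endothelium and lymphocytes, had 4.20, 4.79 and 3.96 FPKM in knockout replicates 1 to 3, against 5.91, 5.86 and 6.27 FPKM in wild-type replicates 1 to 3. The groups were clearly apart, with a log2 fold change of -0.40 (standard error 0.0903) and limma adjusted p = 0.866. Klf2, the factor induced by laminar flow, had 4.36, 6.19 and 3.98 FPKM in knockout and 6.11, 9.46 and 15.1 FPKM in wild-type replicates 1 to 3. The wild-type libraries were far apart and the groups overlapped. Among other endothelial products 9 of 10 tested lay below 0, with Plpp3, a lipid phosphatase, at 12.1 ± 0.285 FPKM in knockout and 16.5 ± 1.13 FPKM in wild-type kidneys and the Notch ligand gene Dll4 at 2.10 ± 0.366 FPKM in knockout and 3.15 ± 0.635 FPKM in wild-type kidneys (SD, n = 3 each). Neither passed (limma adjusted p = 0.866 and 0.919).

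Markers of single vessel types were fewer, and 0 of their tested genes passed limma's test. Igfbp3, on the list of peritubular and vasa recta markers, had 84.7, 56.6 and 61.3 FPKM in knockout replicates 1 to 3, against 109, 107 and 141 FPKM in wild-type replicates 1 to 3. The groups did not overlap, with a log2 fold change of -0.82 (standard error 0.169) and adjusted p = 0.866. Npr3, on the same list, averaged 2.42 ± 0.591 FPKM in knockout and 2.99 ± 0.277 FPKM in wild-type kidneys (SD, n = 3 each). Plat, the tissue plasminogen activator gene on the glomerular list, averaged 13.7 ± 2.99 FPKM in knockout and 16.7 ± 5.56 FPKM in wild-type kidneys. The 7 tested arterial and venous genes had a median log2 fold change of -0.06, and the groups overlapped for each of them. All 7 lay below 0, but without wild-type replicate 3 the median was 0.00296 with 3 of 7 below 0, and with quantiles equalised it was 0.00496, also with 3 of 7. The share of all tested genes below 0 was 66.6% and 49.2% in those settings. Nr2f2, the venous factor, averaged 21.2 ± 3.33 FPKM in knockout and 24.4 ± 1.78 FPKM in wild-type kidneys, and the arterial ligand gene Efnb2 2.89 ± 0.559 FPKM in knockout and 3.30 ± 0.252 FPKM in wild-type kidneys. Of the lymphatic list 3 of 5 genes were tested, with 2 of 3 below 0. Flt4, given above as a VEGF receptor, is on this list too, with a log2 fold change of -0.29 and no overlap. Ccl21a had 1.08 ± 0.872 FPKM in knockout and 1.10 ± 0.409 FPKM in wild-type kidneys.

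**Figure D4:**
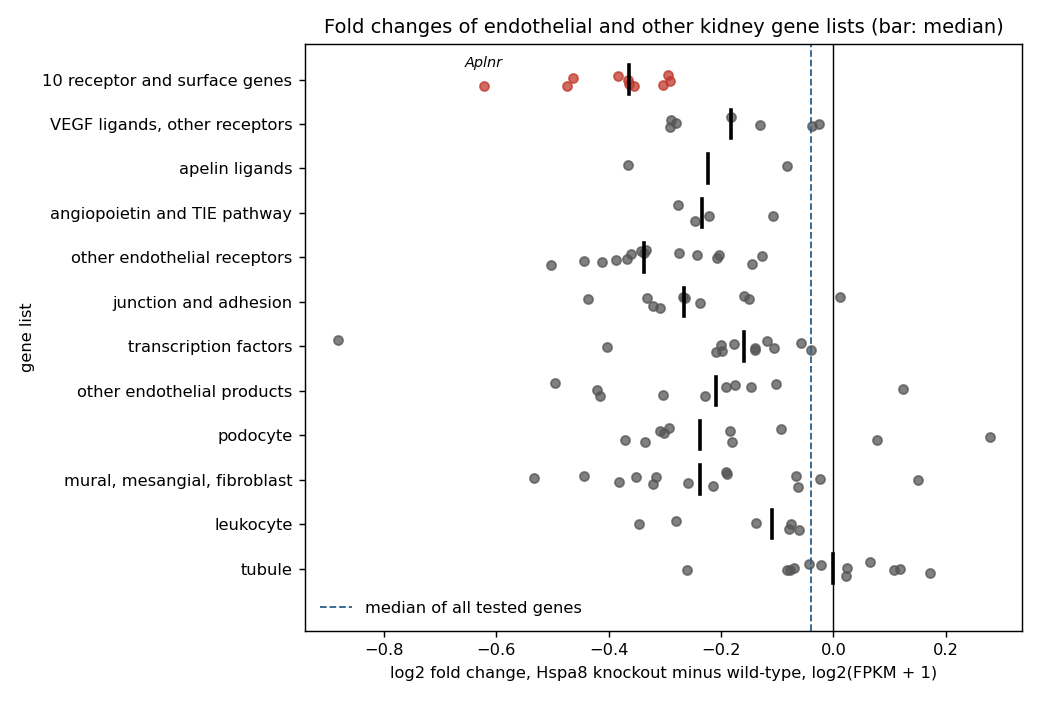
Log2 fold change on the log2(FPKM + 1) scale, knockout minus wild-type (horizontal axis), of the tested genes of each list (rows), with 1 point per gene, a bar at each list's median and a dashed line at the median of all tested genes (-0.04). The 10 genes (red, median -0.36) lie below 0 with Aplnr farthest at -0.62, the 7 endothelial pathway lists have medians from -0.34 to -0.16, and tubule markers centre on 0.

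Of the markers of neighbouring cell types 0 passed limma's test, and their sums overlapped between the groups. So did the sums of the apelin, VEGF, angiopoietin, junction and adhesion, and other product lists of endothelium. Other endothelial receptors summed to 64.3 to 77.3 FPKM in knockout and 83.0 to 108 FPKM in wild-type kidneys, without overlap. Endothelial transcription factors summed to 61.1 to 67.4 FPKM in knockout and 73.2 to 85.6 FPKM in wild-type kidneys, also without overlap. The summed level of the 10 endothelial genes, which were chosen on this contrast, was 91.1 to 119 FPKM in knockout and 125 to 166 FPKM in wild-type kidneys. That of the 10 podocyte markers was 93.0 to 118 FPKM in knockout and 108 to 141 FPKM in wild-type kidneys, with 8 of 10 log2 fold changes below 0 and a median of -0.24 (-0.15 without wild-type replicate 3). That of the 14 mural, mesangial and fibroblast markers was 108 to 122 FPKM in knockout and 111 to 179 FPKM in wild-type kidneys, with 13 of 14 below 0 and a median of -0.24, or 9 of 14 and -0.083 without wild-type replicate 3. That of the 10 leukocyte markers was 114 to 189 FPKM in knockout and 151 to 202 FPKM in wild-type kidneys, with 6 of 6 tested below 0, of which 2 of 6 were below 0 without wild-type replicate 3. Tubule markers, which stand for most of the tissue, summed to 3890 to 4133 FPKM in knockout and 3985 to 4100 FPKM in wild-type kidneys, with 6 of 12 below 0. In none of these lists was a marker at 0 in all libraries. The part of the neighbouring cell types in the endothelial difference was not tested. Of all tested genes 64.9% lay below 0, and 66.6% did without wild-type replicate 3.

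Single markers of these lists with the smallest p were Podxl and Synpo for podocytes, with log2 fold changes of -0.31 and -0.34, Col3a1 and Itga8 for mural, mesangial and fibroblast cells, with -0.53 and -0.44, Ptprc and Cd74 for leukocytes, with -0.28 and -0.35, and Slc5a2 and Cdh16 for tubules, with -0.26 and -0.08. None of these passed limma's test over all genes. Podxl is made by endothelium as well as by podocytes.

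Several lists stood out in single libraries. Wild-type replicate 3, highest for 9 of the 10 endothelial genes, also had the highest sums of adipocyte markers (128 FPKM, against 63.6 to 79.2 FPKM in the other libraries), of mural, mesangial and fibroblast markers (179 FPKM, against 108 to 125 FPKM) and of immediate early and heat shock genes (519 FPKM, against 46.5 to 279 FPKM). For the adipocyte list Car3 and Fabp4 had log2 fold changes of -0.42 and -0.45, without a call. Fabp4 is also on the list of peritubular and vasa recta markers. Of the 10 immediate early and heat shock genes 4 lay below 0 and 6 above, at a median of 0.04. The 2 with the smallest p, the heat shock genes Dnajb1 and Hspa1b, went against most of that list with -0.93 and -1.23, without a call. Without wild-type replicate 3 Fabp4 stood at -0.15, Dnajb1 at -0.58 and Hspa1b at -0.43, and without knockout replicate 1 Hspa1b stood at -0.19. Red cell markers summed to 413, 69.4 and 545 FPKM in knockout replicates 1 to 3. In wild-type replicates 1 to 3 they summed to 43.3, 51.4 and 53.4 FPKM. Knockout replicate 2, highest in its group for 7 of the 10 endothelial genes, had the lowest knockout sum. Wild-type replicate 3, highest in its group for 9 of the 10, had the highest wild-type sum. Hba-a2 and Hbb-bs, each with a near-identical neighbour that can share reads, had log2 fold changes of 2.27 and 2.33 (limma adjusted p = 0.866 each). Platelet markers were at 2.25 to 3.25 FPKM in sum in all 6 libraries. Itga2b, the only 1 of the 5 that was tested, had a log2 fold change of -0.07. Among the untested ones Ppbp had 0.406, 0.182 and 0.311 FPKM in knockout replicates 1 to 3. In wild-type replicates 1 to 3 it had 0.0297, 0 and 0.110 FPKM, without overlap. Knockout means of Pf4, Gp1bb and Gp9 were 1.11, 1.38 and 0.983 of the wild-type means. Whether these libraries' other features bear on the endothelial levels was not tested. Without wild-type replicate 3 the median log2 fold change of the 10 genes was -0.27, and with knockout replicate 2 left out as well it was -0.36. Over all tested genes the medians in these settings were -0.05 and -0.06. Leaving out knockout replicate 2, the highest knockout library for most of the 10, by itself widens the difference for those genes.

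The genes most like Aplnr across the libraries, by Pearson correlation of log2(FPKM + 1) over 6 libraries, were Snx16 (0.990), Bfar (0.989), Rab8b (0.979), Gimap4 (0.977), D11Wsu47e (0.976), Rbm4 (0.975), Epn2 (0.974) and Tbc1d2b (0.973). With 2 groups of 3 libraries such a value mainly reflects groups that lie apart with little spread within them, and it is given as a description. Snx16, a sorting nexin of endosomes, averaged 2.98 ± 0.122 FPKM in knockout and 4.20 ± 0.233 FPKM in wild-type kidneys (SD, n = 3 each). Gimap4, a GTPase of the GIMAP family, averaged 7.71 ± 0.314 FPKM in knockout and 11.4 ± 0.671 FPKM in wild-type kidneys. Bfar, a membrane ubiquitin ligase, averaged 10.97 ± 0.0555 FPKM in knockout and 12.8 ± 0.129 FPKM in wild-type kidneys. None of the 8 passed limma's test over all genes. The correlation of the other 9 endothelial genes with Aplnr was lower, from 0.722 for Ehd3 to 0.909 for Tek, and Tek ranked 157 among all tested genes by this measure.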

How the data were processed

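The values the authors deposited are FPKM for each gene in 6 libraries, with no counts. Per the labels' protocols, libraries were made from total RNA of kidney with a SMARTer mRNA kit after silica column extraction. Per the submitters' processing notes the builds are GRCm38 and mm10. The aligner, quantifier and strand setting were not given in the sources used here. Genes at low FPKM showed no shared ratio between libraries (at most 0.625% of them in a bin of 0.005 on the log2 scale), so no reads were recovered and depth is unknown.

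Groups follow the genotype label and replicate numbers follow the titles. Wild-type columns carry their titles, and columns with A8 were matched to the HSPA8KO titles of the same number. Whether a group holds samples of different animals is not stated, so the p-values reflect spread among these samples alone and it may be technical.

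The test was limma 3.58.1 (R 4.3.3) on log2(FPKM + 1) (group as the term, variance trend, two-sided), with Benjamini-Hochberg adjustment at 0.05 over 12174 genes with a mean of at least 1 FPKM. The script was tested on simulated data. The replicate numbers were not taken as pairs. The 10 genes, the gene lists and the alternatives were chosen with earlier results of these data known. Named genes were the 10, the apelin, VEGF and angiopoietin lists, the 2 genes with the smallest p of each other list, and the 8 most correlated with Aplnr, without model names. Other list genes are given in counts, apart from the platelet genes that were not tested. Gene positions and promoters are RefSeq's (GRCm38.p6), exon overlaps GENCODE's (GRCm38). Figures were drawn with matplotlib 3.10.9.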

Additional observations from a re-analysis of the deposited data

How the results depend on the processing

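Each of the 10 genes that was tested stayed below 0 under all 17 alternatives (169 of 169 values, with Aplnr not tested at a mean of at least 5 FPKM), and their median log2 fold change ranged from -0.46 to -0.27 when 1 library was left out. The number with groups apart was 3 with library medians and 4 with quantiles equalised, and 7 to 9 when 1 library was left out, where 11.7% to 23.9% of all tested genes were apart. Genes called over all tested genes numbered 0 to 5 when 1 library was left out and 5 with both knockout replicate 2 and wild-type replicate 3 left out. That last choice, and the recounts of the 7 endothelial lists, were added after seeing the data. The 5 were globin genes, called also without knockout replicate 2 alone.

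Log2 fold changes that changed sign were Vegfa at 0.00632 (sums equalised), 0.0181 (medians equalised) and 0.0146 (with those 2 libraries left out), and Vegfb at 0.0178 (sums), 0.0294 (medians) and 0.00514 (quantiles). With 1 library left out Vegfa ranged from -0.12 to 0.0605, Vegfb from -0.15 to 0.10, Angpt1 from -0.24 to 0.042, Angpt2 from -0.67 to 0.057, Ccl21a from -0.21 to 0.18 and Itga2b from -0.18 to 0.023. The cause was not tested.

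With the replicate number as a block (replicate block), 0 genes were called and the median of the 10 genes was -0.36. The numbers were not taken as pairs, since same-numbered libraries deviated from their group means with correlations of 0.307, -0.215 and -0.321 for numbers 1, 2 and 3. The highest correlation, 0.55, was that of knockout replicate 2 with wild-type replicate 3. Replicate 1 had the lowest sum of immediate early and heat shock genes in each group, 46.5 FPKM in knockout and 89.3 FPKM in wild-type. Why was not tested. Depth is unknown, so the precision of the lowest gene, Aplnr, rests on the spread of 3 libraries a group.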
